A study of Oryza sativa Japonica Group with 31 samples.

Results

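The genes described are 9 rice loci of the AP2/ERF family of transcription factors, out of 55801 loci with a listed transcript level. They are LOC_Os03g08460, LOC_Os03g08470, LOC_Os03g08490 and LOC_Os03g08500, which follow one another closely in the numbering of chromosome 3, LOC_Os01g54890 (ERF922), LOC_Os02g54160 (EREBP1), LOC_Os06g09390 (ERF71), and the neighbours LOC_Os09g11460 (SUB1C) and LOC_Os09g11480 (SUB1B) on chromosome 9. They were taken by identifier but selected on their FPKM in control and cold, so what follows describes those levels and tests nothing. The names in brackets are those in common use for these identifiers. The deposited table gives identifiers alone, so membership of the family could not be checked in it.

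Leaves came from seedlings of Nipponbare, the japonica cultivar whose genome is the rice reference. In the series, which examines R-loops (RNA paired with 1 strand of DNA, displacing the other) and the transcription of cold-responsive genes, all seedlings grew in liquid culture under a 12 h light and 12 h dark cycle at 28 and 22 °C. From day 13 the cold group was held at 4 °C for 24 h while the control group stayed at the growth temperatures. RNA-seq was made from 2 control and 2 cold samples, called biological replicates in the labels, and the deposited table holds 1 value per locus for control and 1 for cold. No genotype, transgene or chemical differs between the groups, as far as the labels say.

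Each value is an FPKM, the authors' count of fragments scaled by locus length and by sequencing depth, so levels of different loci can be set side by side. With 1 value per treatment there is no spread between replicates, no test and no p-value, and no difference below can be set against experimental error. The control column sums to 584870 FPKM and the cold column to 554475 FPKM, and how many fragments lie behind a value is unknown. Leaf is a mixture of cells, and a change in the number of cells of a type cannot be told apart from a change of RNA per cell. The identifiers are not named in the table, so leaf marker genes were not checked.

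ERF proteins (ethylene response factors) bind DNA through a domain shared with the floral regulator APETALA2, many of them at the GCC box, a promoter element first described in defence genes that respond to ethylene. The DREB/CBF factors, known for their part in cold acclimation, form a related branch of the same family that binds the dehydration-responsive element. ERF genes are known to respond to ethylene, wounding, pathogens, low oxygen, drought and flooding. The SUB1 locus is the best known example in rice, where the SUB1A gene carried by some indica cultivars holds back shoot growth under water, and Nipponbare has SUB1B and SUB1C but no SUB1A.

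In cold leaf, 5 of the 9 loci were at least 2-fold higher than in control. They were LOC_Os03g08500, SUB1B, ERF922, EREBP1 and SUB1C. The other 4 differed by less than 2-fold, LOC_Os03g08470 and LOC_Os03g08490 on the higher side and LOC_Os03g08460 and, except with median-of-ratios scaling, ERF71 on the lower side, so 0 members were at least 2-fold lower. Folds at these limits are differences of log2(FPKM + 1), a scale that understates the change of weak loci. A floor of 1 FPKM in the mean of both columns kept 20876 loci, of which 12.5% were higher in cold by at least 2-fold and 19.2% were lower by as much. This balance depended on the scale, with 18.1% higher and 11% lower after median-of-ratios scaling and 7.97% and 7.75% with a pseudocount of 5. All 9 members passed the floor, LOC_Os03g08500 only through its cold value. At 4-fold, 4 members were higher, beside 3.86% of all kept loci, and at 16-fold 2 members, LOC_Os03g08500 and SUB1B, beside 0.383%. A pseudocount of 5 left 2 members past 4-fold, beside 1.83%, and LOC_Os03g08500 alone past 16-fold, beside 0.101%. At 4-fold, quantile normalization left 3 members, beside 4.36%, and median-of-ratios scaling gave 5, beside 5.46%. The members were chosen with this contrast known, so nothing is read from their count against these shares.

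**Figure D1:**
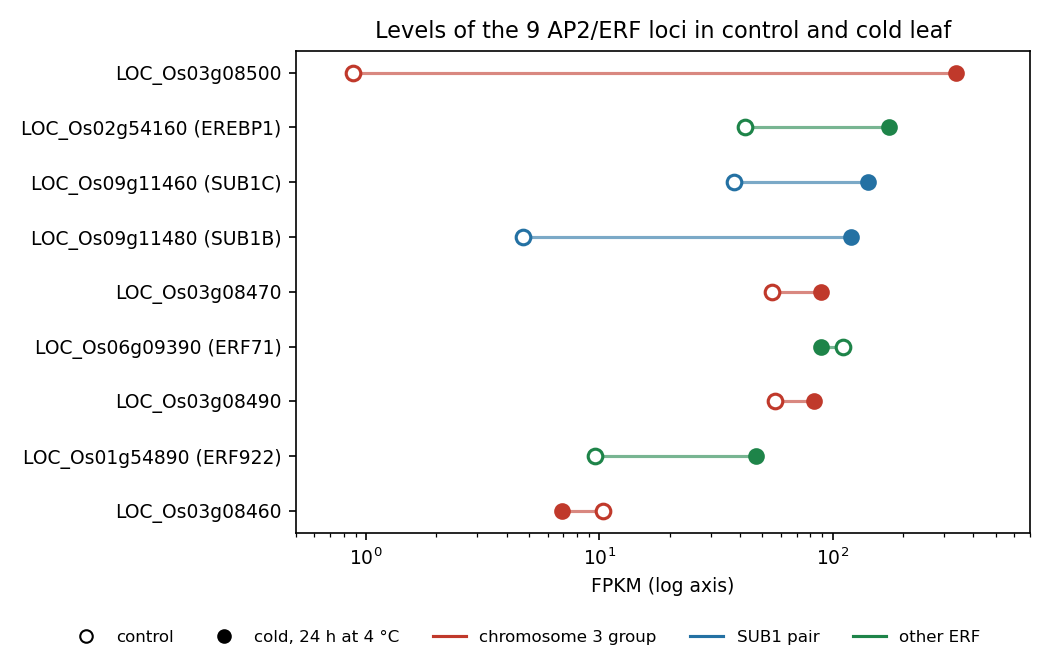
FPKM of the 9 AP2/ERF loci on a log axis, with open circles for control, filled circles for cold and 1 authors' value each, so no error bars can be drawn. Loci are ordered by their cold level, and LOC_Os03g08500 spans the widest distance, from 0.875 to 337.5 FPKM, while LOC_Os03g08460 and ERF71 have their cold value to the left of the control value, a direction that median-of-ratios scaling turns for ERF71.

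The 4 loci of chromosome 3 did not behave alike. LOC_Os03g08500 stood at 0.875 FPKM without cold and at 337.5 FPKM after it, a ratio of 386 and a log2 fold change of 7.50. With a pseudocount of 1, no other of the 20876 kept loci had a higher log2 fold change, while 1 did with a pseudocount of 0.1 or 5 and 5 did with none. In level it went from place 21268 of 55801 loci in control to place 177 in cold. There were 34984 loci under 1 FPKM in control, and 4 of them reached 100 FPKM in cold. LOC_Os03g08500 was the highest of those 4 and the only one past 300 FPKM. These counts were added after the values had been seen, so its place among those loci is a description only. A control value under 1 FPKM may rest on few fragments, which leaves the size of the ratio uncertain, and the log2 fold change lay between 5.87 with a pseudocount of 5 and 8.59 with none.

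LOC_Os03g08490, directly before it in the numbering, stood at 56.7 FPKM without cold and at 83.5 FPKM after it. That is a ratio of 1.47 and a log2 fold change of 0.55. LOC_Os03g08470 stood at almost the same levels, 54.7 FPKM without cold and 88.8 FPKM after it, a ratio of 1.62 and a log2 fold change of 0.69. The level of LOC_Os03g08470 was 0.966 of that of LOC_Os03g08490 in control and 1.06 of it in cold, so this pair kept nearly the same proportion to each other in both treatments. Both were moderately strong transcripts already without cold, at places 1839 and 1762 of all loci in control and 1025 and 1107 in cold.

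LOC_Os03g08460, the first of the group, was the weakest of the 9 members in cold. Its cold level of 6.93 FPKM was 0.667 of its control level of 10.4 FPKM, with a log2 fold change of −0.52. The median over all kept loci was −0.27, and 38.5% of them lay below LOC_Os03g08460, so its shift was close to that of an ordinary locus. The median over the 4 loci of the group was 0.62.

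These differences changed how the group's transcripts were divided among its loci. The summed level of the 4 loci was 4.21-fold higher in cold, at 517 FPKM against 123 FPKM. LOC_Os03g08500 made up 0.713% of the sum in control and 65.3% in cold. Without it the other 3 loci were 1.47-fold higher in sum, at 179 FPKM in cold against 122 FPKM in control. In control LOC_Os03g08490 was 64.8-fold above LOC_Os03g08500, and in cold LOC_Os03g08500 was 4.04-fold above LOC_Os03g08490. The control share and the control ratio rest on the 0.875 FPKM of LOC_Os03g08500, so their size is uncertain.

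SUB1C and SUB1B are ERF genes of the submergence tolerance locus. SUB1B was a weak transcript in control, at 4.69 FPKM, and reached 120 FPKM in cold, a ratio of 25.6 and a log2 fold change of 4.41. Of the kept loci 45 had a higher log2 fold change, a count that was 34 with a pseudocount of 5, 112 with 0.1 and 144 with none. SUB1C was the stronger of the pair in control, at 37.8 FPKM, and reached 142 FPKM in cold, a ratio of 3.76 and a log2 fold change of 1.88. The pair was thus unequal in control and nearly level in cold, with SUB1C 8.06-fold above SUB1B in control and 1.18-fold above it in cold. Their sum went from 42.5 FPKM to 262 FPKM, and the share of SUB1B in that sum was 11.0% in control and 45.8% in cold. The sources used here do not say how fragments that match both genes were assigned, so part of either value may come from the other copy. The same holds for the chromosome 3 loci.

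ERF922 is known in rice as a factor that lowers resistance to the blast fungus and tolerance of salt. It stood at 9.61 FPKM without cold and at 47.1 FPKM after it, a ratio of 4.90 and a log2 fold change of 2.18. EREBP1 is known in rice as a GCC-box binding factor phosphorylated by the MAP kinase BWMK1. Its level was 41.96 FPKM without cold and 175 FPKM after it, a ratio of 4.17 and a log2 fold change of 2.03. ERF922 and EREBP1 thus differed from control by a similar factor, at unlike levels. EREBP1 had the second highest cold level of the 9.

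ERF71, known in rice for its part in drought responses, had the highest control level of the 9 members. That level was 110 FPKM, against 88.7 FPKM in cold, 1.24-fold lower, with a log2 fold change of −0.31. This lay near the median of all kept loci, 48.2% of which were below it. Its direction depended on the scale set between the columns. Median-of-ratios scaling, which moved the median of all kept loci by 0.30, gave 0.030 for ERF71 beside 0.029 for all loci, and quantile normalization, which moved the median by 0.17, kept ERF71 below 0.

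**Figure D2:**
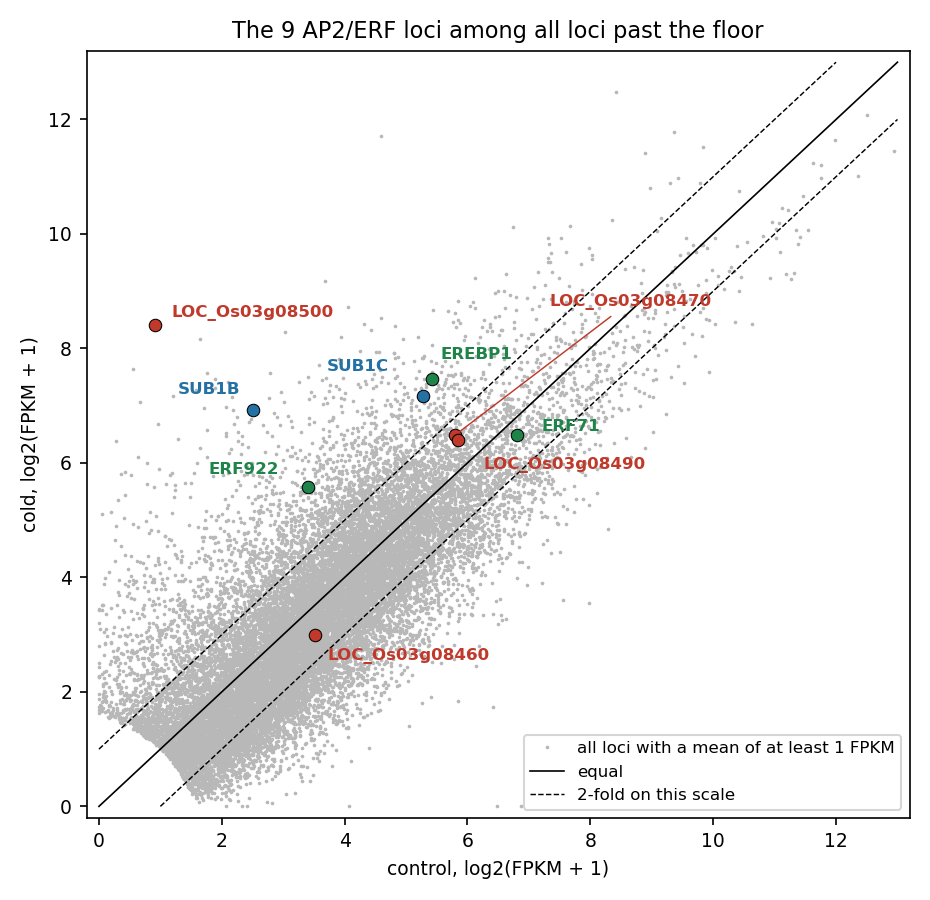
Level in cold against level in control, both as log2(FPKM + 1), for the 20876 loci kept by the floor of 1 FPKM (grey points) and the 9 AP2/ERF loci (coloured points, with red for chromosome 3, blue for the SUB1 pair and green for the others). The solid line marks equal levels and the dashed lines 2-fold differences, and 5 members lie above the upper dashed line, LOC_Os03g08500 farthest from it.

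The order of the members by level was rearranged in cold. In control ERF71 was highest, followed by LOC_Os03g08490, LOC_Os03g08470, EREBP1, SUB1C, LOC_Os03g08460, ERF922, SUB1B and LOC_Os03g08500. In cold LOC_Os03g08500 was highest, followed by EREBP1, SUB1C, SUB1B, LOC_Os03g08470, ERF71, LOC_Os03g08490, ERF922 and LOC_Os03g08460. Levels ran from 0.875 to 110 FPKM in control, a 126-fold range with a median of 37.8 FPKM. The size of that range is uncertain, as it rests on the weak control value of LOC_Os03g08500. In cold the levels ran from 6.93 to 337.5 FPKM, a 48.7-fold range with a median of 88.8 FPKM. Neighbours in this order could not be separated by a spread between replicates, and LOC_Os03g08470 and ERF71 in cold, at 88.8 and 88.7 FPKM, were practically equal. The summed level of all 9 was 3.33-fold higher in cold, at 1090 FPKM against 327 FPKM.

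The loci around the chromosome 3 group differed between control and cold in both directions, as did its members. LOC_Os03g08480 lies inside the chromosome 3 group and was 2.24-fold lower in cold, at 12.8 FPKM against 28.6 FPKM, between neighbours that were both higher in cold. LOC_Os03g08510, directly after LOC_Os03g08500, was listed at 0 in both columns. LOC_Os03g08450, directly before the group, stood at 33.1 FPKM without cold and 23.9 FPKM after it. Of the 21 other loci within the group or up to 10 places on either side, 13 passed the floor. Of these 2 were higher in cold by at least 2-fold, 3 lower by as much and 8 within 2-fold, with a median log2 fold change of −0.45. Over all kept loci 12.5% were higher and 19.2% lower by as much, with a median of −0.27. Nothing particular to this window is therefore read from its counts.

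Of the 2 loci of this window at least 2-fold higher in cold, 1 stood 3 places before the group. It went from 38.8 FPKM without cold to 90.5 FPKM after it, a log2 fold change of 1.20. The other, with the larger difference, stood 8 places after LOC_Os03g08500. LOC_Os03g08580 stood at 1.31 FPKM without cold and at 143.6 FPKM after it, a ratio of 110 and a log2 fold change of 5.97, and was the only other locus of the window at least 8-fold higher. The loci between them reached at most 29.3 FPKM in cold, apart from LOC_Os03g08570, directly before LOC_Os03g08580, which stood at 33.5 FPKM without cold and 46.4 FPKM after it.

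Around SUB1C and SUB1B no other locus past the floor was at least 2-fold higher in cold, but only 4 passed it. LOC_Os09g11470, which lies between them, was 1 of 14 loci listed at 0 in both columns among the 21 other loci of the window. The 4 that passed the floor were all lower in cold by less than 2-fold, with log2 fold changes from −0.76 to −0.42, and all 4 stayed below 0 with TPM, median-of-ratios and quantile scaling. Over all kept loci 12.5% were higher by at least 2-fold and the median was −0.27, so these 4 were ordinary loci. LOC_Os09g11450, directly before SUB1C, stood at 25.3 FPKM without cold and 18.3 FPKM after it, and LOC_Os09g11490, directly after SUB1B, at 0.347 and 0.0609 FPKM.

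**Figure D3:**
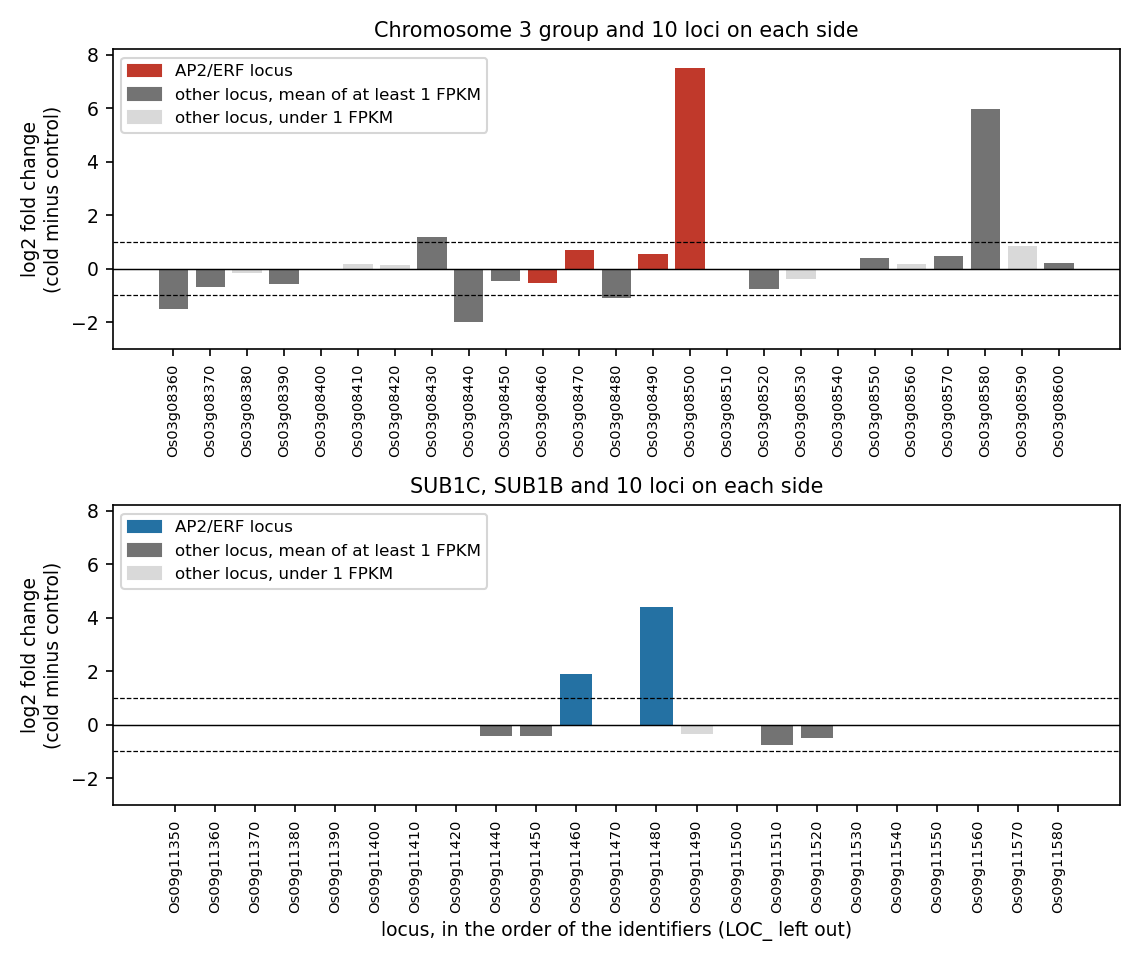
Log2 fold change, cold minus control on the log2(FPKM + 1) scale, of each locus in the order of the identifiers, for the chromosome 3 group (upper panel) and SUB1C and SUB1B (lower panel) with 10 loci on each side. Coloured bars are AP2/ERF loci, dark grey bars other loci past the floor, light grey bars weaker ones, and dashed lines mark 2-fold. The tallest bars stand at 7.50 for LOC_Os03g08500 and 5.97 for LOC_Os03g08580 above, and at 4.41 for SUB1B below.

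The 3 members that stand singly were set beside 5 loci on each side. Around EREBP1, 8 of 10 loci passed the floor, with 0 higher in cold by at least 2-fold and 2 lower by as much. LOC_Os02g54150 before it stood at 18.3 FPKM without cold and 17.0 FPKM after it, and LOC_Os02g54180 after it at 2.75 and 0.300 FPKM. Around ERF922, 9 of 10 loci passed it, with 2 higher and 0 lower. One of the higher ones was LOC_Os01g54880 directly before it, at 8.80 FPKM without cold and 19.1 FPKM after it. Around ERF71, 7 of 10 passed it, with 1 higher and 1 lower, and both direct neighbours, LOC_Os06g09380 and LOC_Os06g09400, were listed at 0 in both columns. The median log2 fold change of the loci past the floor was −0.45 around EREBP1, 0.24 around ERF922 and −0.28 around ERF71. With so few loci, nothing is read from these counts beside the 12.5% higher and 19.2% lower over all kept loci.

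Of the 8 members with at least 10 FPKM in cold, LOC_Os03g08500 lay farthest from its nearest locus. The members were selected on these same levels, so the distances are a description only. Likeness was taken as the distance between loci over their control and cold levels on the log2(FPKM + 1) scale, which rests on 2 values per locus. The nearest locus, LOC_Os02g32590, was at a distance of 0.78 and went from 2.13 FPKM without cold to 286 FPKM after it. For SUB1B the nearest was LOC_Os03g60560, at a distance of 0.15, which went from 4.54 to 108 FPKM. The other 6 members with at least 10 FPKM in cold had a locus within 0.071. No other member was among the 3 nearest loci of any of these 8 members. The search ran over 55801 loci, so that absence says nothing about how alike the members are.

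**Figure D4:**
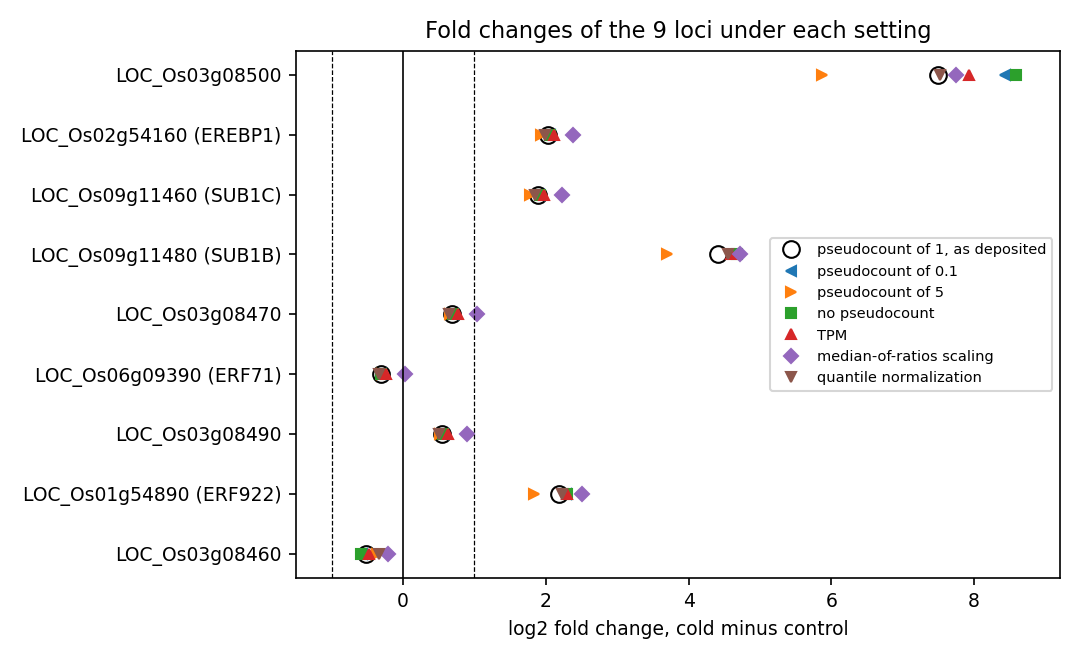
Log2 fold change of each of the 9 loci, cold minus control, with the values as deposited and a pseudocount of 1 (open circles) and under 6 other settings of the pseudocount or of the scale between columns (filled symbols), with dashed lines at 2-fold. The 5 loci past 2-fold stay past it under every setting shown, LOC_Os03g08470 crosses it with median-of-ratios scaling, at 1.03, and ERF71 crosses 0 under that scaling alone.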

How the data were processed

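The authors deposited FPKM, 1 value per locus for each treatment. The sources used here do not say if a value comes from a single library, from merged reads or from averaging. SAMtools, Bowtie, HISAT2 2.1.0, Trim Galore 0.4.3, Trimmomatic 0.39, featureCounts 1.6.4 and FastQC were used in the series, per the submitters' processing notes, which do not say for which assay. Genome build, annotation and the treatment of strand and of multiply mapped reads are not given in these sources, so no coordinates are printed. None of the 9 identifiers occurs in the RefSeq gene table at hand (39387 genes, assembly ASM3414082v1). Sequences, promoter motifs, proteins, leaf markers and other ethylene pathway genes were therefore not analysed here.

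Fold changes are differences of log2(FPKM + 1), cold minus control. A mean of at least 1 FPKM was required for background shares. The limma fit was provided for values per library only and was not run. Loci were named by rule: all members, loci between or next to them, window loci at least 8-fold different, and the nearest locus by level. The members and lists were chosen with earlier results of these data known, and the counts of loci under 1 FPKM in control that reached 100 or 300 FPKM, the counts of members at 4-fold and 16-fold, the sums and the ratios between members were added after their values had been seen. Code was tested on simulated data. Alternatives were pseudocounts of 0.1, 5 and none, TPM, median-of-ratios, quantile normalization, no floor and a floor of 5 FPKM. Python 3.11.15, numpy 2.4.6, pandas 2.3.3 and matplotlib 3.10.9 were used. The 27 libraries of other assays were not used.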

Additional observations from a re-analysis of the deposited data

How the results depend on the processing

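Each value was recomputed with 1 choice changed at a time. Of the 210 values so obtained, 174 differed from the reported ones by no more than a set limit, 34 moved further and 2 changed sign. The limit was 0.5 for a member's log2 fold change, 0.3 for a median over members, 0.1 for the median of all loci, 10 percentage points for ranks and 1.5-fold for counts and shares. Median-of-ratios scaling reversed ERF71, to 0.030, and the median of all loci, to 0.029, and gave a median of 0.96 for the 4 chromosome 3 loci. It also put 6 members past 2-fold, beside 18.1% of all kept loci. The cause of these shifts is the scaling itself, which raises the cold column against the control column. The other 8 members kept their direction under all 6 settings of pseudocount and scale, which a pseudocount cannot turn. No member was at least 2-fold lower under any alternative. No paired analysis was possible because there is only 1 value per treatment, and for the same reason fits without each replicate were not run. The unknown depth limits weak values most, above all the control value of LOC_Os03g08500.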
